A study of Mus musculus with 30 samples.

Results

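Integrin subunits, their counter-receptor ICAM-1 and the hyaluronan receptor CD44 were followed in the mRNA of bone marrow–derived dendritic cells (BMDCs). The 10 genes were *Itgax*, *Itgam*, *Itgal* and *Itgb2*, which encode the CD11 and CD18 subunits of the leukocyte integrins, *Itgb1*, *Itga4*, *Itgb7* and *Itgae*, which encode further integrin subunits, and *Icam1* and *Cd44*. They were taken by name, through the Ensembl identifier of each row, from a table of 43629 genes, and all 10 passed the filter on low counts in every comparison. RNA came from cultures of wild-type (WT) mice of the C57BL/6J substrain and of *Cacnb3-/-* mice of the C57BL/6N substrain, which lack a β subunit of voltage-gated calcium channels, so genotype and substrain cannot be told apart in these data. Mice were adults of both sexes, and cells were grown from marrow for 6 days with GM-CSF. The library names hold 5 numbers for each genotype, and libraries that share a number are called a culture here. The labels do not say that such libraries came from the same culture. Every number has a library with the name ending ctrl, one ending 0p5h and one ending 24h, which makes 30 libraries.

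By the sample descriptions, cells received 500 µM ATP for 30 min and were harvested directly or after 24 hours. The libraries named 24h carry a treatment field for 24 hours after ATP. Against the names, the treatment field gives vehicle for every 0p5h library and a 30 min ATP pulse for every ctrl library, so the sets are called by name here and which of ctrl and 0p5h was untreated could not be settled. The deposited values are reads counted per gene, between 8237393 and 32164225 in a library with a median of 19556920. The lowest median was in the *Cacnb3-/-* 24h libraries, at 11986891 reads. Values below are CPM, counts per 1000000 after TMM normalization. *Cacnb3* itself, counted over all its exons, was at 1050 to 2170 CPM over the WT libraries and at 547 to 1330 CPM over those of *Cacnb3-/-* mice, and such a count does not check which exons were deleted.

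Integrins are heterodimers of an α and a β subunit that bind ligands on cells or in matrix. The CD18 subunit (*Itgb2*) pairs with CD11a (*Itgal*) to form LFA-1, with CD11b (*Itgam*) to form Mac-1 and with CD11c (*Itgax*), whose surface protein is the usual marker of dendritic cells, and LFA-1 and Mac-1 bind ICAM-1. The α4 subunit (*Itga4*) pairs with β1 (*Itgb1*) or β7 (*Itgb7*) and binds VCAM-1, fibronectin and MAdCAM-1, while CD103 (*Itgae*) pairs only with β7 and binds E-cadherin. CD44 binds hyaluronan and is linked to the actin cortex through ERM proteins. Dendritic cells can migrate through tissue with little need of integrins, but use them for attachment to endothelium and for contacts with T cells.

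Genes used as markers of dendritic cells were present in every library. The 8 genes *Cd74*, *H2-Ab1*, *H2-Aa*, *Flt3*, *Zbtb46*, *Csf2rb*, *Batf3* and *Ciita* summed to between 13900 and 38700 CPM over all libraries. Most of this sum came from *Cd74*, *H2-Aa* and *H2-Ab1*, at means of 14500, 8440 and 4490 CPM in WT ctrl libraries. *Flt3*, *Zbtb46* and *Batf3* averaged 70.5, 114 and 141 CPM there. The sums of different lists do not measure shares of cell types. The 8 markers of mature migratory dendritic cells, *Ccr7* and *Cacnb3* itself among them, summed to between 9090 and 29800 CPM, and their group means were lower in *Cacnb3-/-* than in WT libraries in each set (13200 against 21300 CPM at ctrl, 14900 against 22800 CPM at 0p5h and 15000 against 25800 CPM at 24h). A list of 9 macrophage genes reached 678 to 4220 CPM, 9 granulocyte genes 165 to 767 CPM and 5 genes of mast cells and basophils 6.84 to 56.7 CPM. The 6 genes of T, B and NK cells stayed between 0.23 and 4.28 CPM, with 1 of them at 0 in all WT ctrl and 1 in all *Cacnb3-/-* 0p5h libraries.

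*Itgam* and *Itgax* are neighbours on chromosome 7 of GRCm38. *Itgam* (ENSMUSG00000030786) runs from 128062640 to 128128160 and *Itgax* (ENSMUSG00000030789) from 128129547 to 128150656, both on the forward strand with 1386 bases between them. *Itgal* (ENSMUSG00000030830) lies on the same chromosome, from 127296260 to 127335137. The 250 bases before the RefSeq start sites of *Itgax* and *Itgam* are printed because these adjacent genes encode the α subunits whose mRNA is compared most closely here, and that of *Icam1* because the gene is a textbook NF-κB target. The sequences are the RefSeq reference (GRCm38.p6), 5′ to 3′ on the strand of the gene, with matches to searched motifs in capitals.

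Itgax, chr7:128129300-128129549, forward strand: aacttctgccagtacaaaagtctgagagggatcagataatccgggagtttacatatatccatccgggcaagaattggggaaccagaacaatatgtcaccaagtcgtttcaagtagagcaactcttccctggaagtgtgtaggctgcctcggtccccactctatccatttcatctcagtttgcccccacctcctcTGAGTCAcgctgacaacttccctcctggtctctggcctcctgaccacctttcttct
Itgam, chr7:128062390-128062639, forward strand: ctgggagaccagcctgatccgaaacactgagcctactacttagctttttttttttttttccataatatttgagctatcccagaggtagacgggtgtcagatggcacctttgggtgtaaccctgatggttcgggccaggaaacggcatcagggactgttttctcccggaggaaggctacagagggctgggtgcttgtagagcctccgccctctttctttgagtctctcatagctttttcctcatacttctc
Icam1, chr9:21015690-21015939, forward strand: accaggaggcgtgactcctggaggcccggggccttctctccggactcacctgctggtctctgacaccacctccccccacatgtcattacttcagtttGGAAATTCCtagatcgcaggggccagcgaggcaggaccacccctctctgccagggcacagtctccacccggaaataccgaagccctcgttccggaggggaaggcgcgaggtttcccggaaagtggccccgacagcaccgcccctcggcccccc

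On both strands, the motifs searched were GGGNNTTCC and GGAAATTCC (NF-κB type), TGANTCA (AP-1), TGACGTCA (CRE) and GAGGAAGT (PU.1 type), where N is any base and no match overlapped another. The *Icam1* window held GGAAATTCC once, starting 153 bases before the start site, and this motif occurs in 0.286% of 32851 mouse promoter windows of the same length. The *Itgax* window held TGANTCA once, 56 bases before the start, as do 6.75% of windows. None of the 5 motifs was in the *Itgam* window. Windows were also held for *Cd44*, *Itgb1*, *Itga4* and *Itgb7*, of which *Itgb1* held GGGNNTTCC once (4.98% of windows). A match is a string of letters and not a shown binding site.

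Read per length, the 10 mRNAs spanned almost 3 orders of magnitude. Averaged over the 30 libraries, *Itgb1* stood highest at 199.9 CPM per kilobase of exon, followed by *Icam1* at 144, *Itgb2* at 109, *Cd44* at 59.2, *Itgax* at 48.9, *Itgam* at 38.6 and *Itga4* at 32.5 CPM per kilobase. *Itgb7* with 7.01 and *Itgal* with 5.22 CPM per kilobase were far lower, and *Itgae* was lowest at 0.342 CPM per kilobase. The LFA-1 α chain was thus a small share of the α chains that pair with CD18. In WT ctrl libraries, *Itgax* made up 59.1 ± 10.5%, *Itgam* 34.7 ± 9.95% and *Itgal* 6.12 ± 1.67% of their summed length-scaled level (SD, n = 5). Among the 3 β chains there, *Itgb1* made up 61.4 ± 9.85%, *Itgb2* 36.7 ± 9.45% and *Itgb7* 1.89 ± 0.849%. Neighbours in this order overlapped in range over the libraries, except that *Itga4* stayed above *Itgb7* and *Itgal* above *Itgae*. Of 2540 exonic bases of *Icam1*, 491 (19.3%) are shared with an unnamed gene on the opposite strand, and of 13978 exonic bases of *Itga4*, 1124 (8.04%) with *Cerkl* on the opposite strand. Reads there may have been left uncounted, which the length does not allow for.

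**Figure D1:**
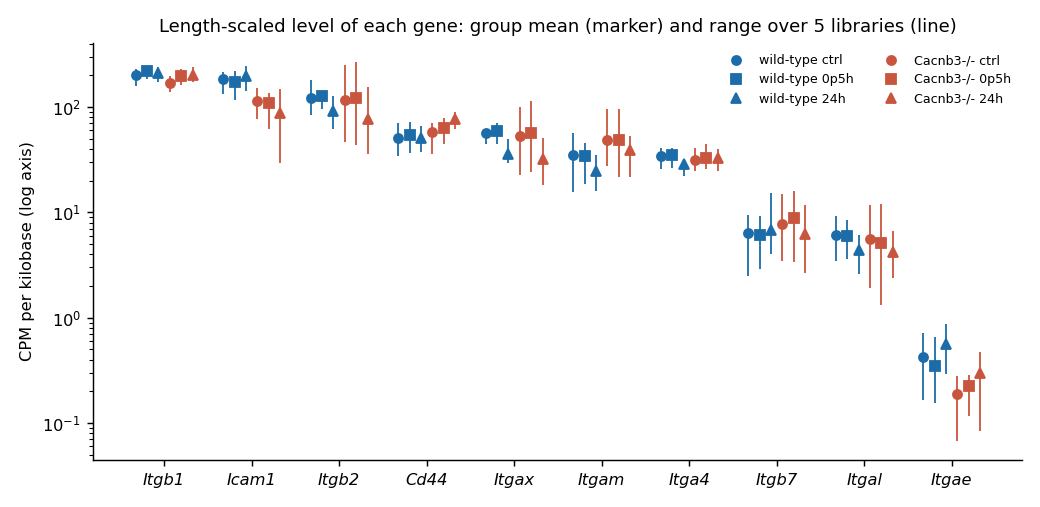
Length-scaled level (CPM per kilobase of exon, log axis) of the 10 genes in the 6 groups. Markers are group means and lines the range over 5 libraries. Itgb1 is highest and Itgae lowest in every group, and Cd44 is above Itgb2 in the Cacnb3-/- 24h group alone.

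The clearest change in these genes was a lower level of *Itgax*, the CD11c gene, in the 24h libraries of both genotypes. In WT cultures p974s846, p974s850, p974s855, p974s856 and p974s864, *Itgax* was at 181, 233, 251, 242 and 238 CPM in the ctrl libraries, at 182, 274, 282, 250.5 and 213 CPM in the 0p5h libraries and at 119.7, 129, 201, 154 and 121 CPM in the 24h libraries. Each WT culture was lowest at 24h, and the highest 24h value, of p974s855, overlapped the other sets. In the *Cacnb3-/-* cultures, ordered as p974s843, p974s851, p974s852, then p974s853 and then p974s865, *Itgax* was at 219, 251.9, 91.2, 115 and 403 CPM at ctrl, at 206, 258, 98.2, 116 and 457 CPM at 0p5h and at 137, 149.9, 73.7, 79.7 and 207 CPM at 24h. Here too each culture was lowest at 24h, while the cultures differed among themselves by more than the sets did. Cultures p974s852 and p974s853 were lowest in every set and p974s865 highest.

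Within a WT culture, *Itgax* at 24h was between 0.508 and 0.803 times its ctrl level and between 0.471 and 0.714 times its 0p5h level, and within a *Cacnb3-/-* culture between 0.514 and 0.809 and between 0.453 and 0.751 times. By edgeR's quasi-likelihood test without regard to culture, the log2 fold change from ctrl to 24h was -0.65 in WT (SE 0.16, adjusted p = 0.277) and -0.71 in *Cacnb3-/-* (SE 0.39, adjusted p = 0.449). From 0p5h to 24h it was -0.72 in WT (SE 0.17, adjusted p = 0.0773) and -0.79 in *Cacnb3-/-* (SE 0.40, adjusted p = 0.319). With the culture number as a block, edgeR's adjusted p was 0.00835 for WT 24h against ctrl, 0.00164 for WT 24h against 0p5h and 0.00238 for *Cacnb3-/-* 24h against 0p5h, at log2 fold changes of -0.67, -0.73 and -0.67. These adjusted p-values stayed under 0.05 with each culture left out in turn (highest 0.0464, 0.0114 and 0.0185) and with each library's trend in GC content removed (0.0033, 0.000588 and 0.0118). For *Cacnb3-/-* 24h against ctrl, edgeR with the block gave -0.62 (adjusted p = 0.0142), which was less stable. Its adjusted p stayed under 0.05 in 3 of 5 cases with a culture left out (highest 0.0837) and was 0.0504 with the GC trend removed. Over all 18 alternatives, with and without the block, the adjusted p in WT was under 0.05 in 8 for 24h against ctrl (highest 0.696) and 9 for 24h against 0p5h (highest 0.498). In *Cacnb3-/-* cultures it was under 0.05 in 4 of 18 (highest 0.841) and 7 of 18 (highest 0.609). None of these changes reached 2-fold. The interaction of genotype with 24h against ctrl was -0.06 for *Itgax* (SE 0.44, edgeR adjusted p = 0.978), and its sign turned with the block. In bulk RNA, fewer cells that express a gene and less RNA of it per cell cannot be told apart.

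**Figure D2:**
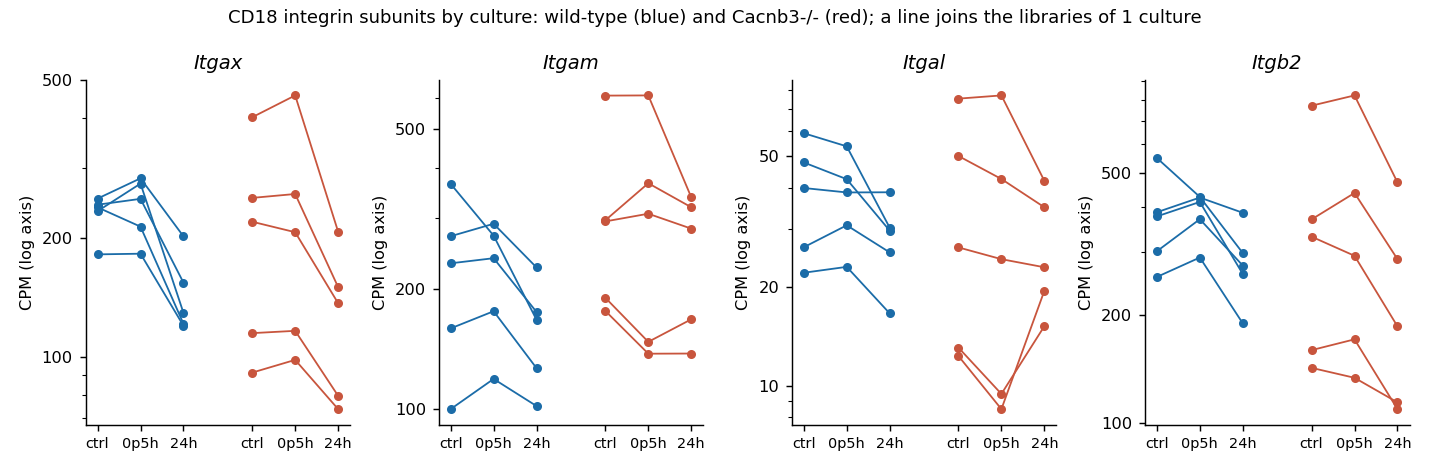
Itgax, Itgam, Itgal and Itgb2 in each culture (CPM, log axis), by set. A line joins the 3 libraries of 1 culture, blue for WT and red for Cacnb3-/-. Itgax and Itgb2 are lower at 24h than at ctrl and 0p5h in all 10 cultures, and for these genes the red cultures are spread more widely than the blue ones.

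*Itgb2*, the CD18 gene shared by the CD11 α chains, was also lower at 24h than at ctrl and at 0p5h in 5 of 5 cultures of each genotype. In the WT cultures, in the order given above, it was at 256, 378, 302, 388 and 549.9 CPM at ctrl, at 289.7, 414, 371, 426 and 428 CPM at 0p5h and at 189.6, 260.5, 275, 386 and 298 CPM at 24h. In the *Cacnb3-/-* cultures it was at 331, 370.3, 142, 159.6 and 770.0 CPM at ctrl, at 293, 439, 134, 171 and 823 CPM at 0p5h and at 186, 287, 114, 109 and 469.9 CPM at 24h. The sets overlapped in both genotypes, and culture p974s865 had the highest *Itgb2* level and p974s852 and p974s853 the lowest in each set. Log2 fold changes without the block were -0.40 (SE 0.23) in WT and -0.59 (SE 0.49) in *Cacnb3-/-* for 24h against ctrl, and -0.44 (SE 0.18) and -0.66 (SE 0.51) for 24h against 0p5h, with edgeR adjusted p between 0.38 and 0.657. With the block, 24h against 0p5h gave -0.47 in WT (adjusted p = 0.0109) and -0.56 in *Cacnb3-/-* (adjusted p = 0.00266). The WT value lost the call without culture p974s846 (adjusted p = 0.0521), and WT 24h against ctrl was -0.39 (adjusted p = 0.113). With the GC trend removed as well, the *Cacnb3-/-* value was -0.36 (adjusted p = 0.0242).

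*Itgam*, the CD11b gene, was lower at 24h than at 0p5h in 5 of 5 WT cultures and in 3 of 5 *Cacnb3-/-* cultures. The WT cultures were at 159, 231, 99.9, 270.2 and 365 CPM at ctrl, at 175, 238, 119, 290.3 and 271 CPM at 0p5h and at 126, 175, 102, 226 and 167 CPM at 24h. The *Cacnb3-/-* cultures were at 296, 294, 176, 189.6 and 607 CPM at ctrl, at 367, 308, 137, 147 and 608 CPM at 0p5h and at 319, 282, 138, 168 and 338 CPM at 24h. The fall in the *Cacnb3-/-* mean, from 313 ± 174 CPM at ctrl to 249 ± 90.9 CPM at 24h, rested mainly on p974s865. For 24h against 0p5h, the log2 fold change with the block was -0.44 in WT (edgeR adjusted p = 0.00976) and -0.17 in *Cacnb3-/-* (adjusted p = 0.375), without it -0.45 (adjusted p = 0.6) and -0.30 (adjusted p = 0.681). The interaction of genotype with 24h against 0p5h was 0.14 (SE 0.51, adjusted p = 0.945), so a difference between the genotypes in this change was not detected. Against ctrl, *Itgam* at 24h was -0.49 (SE 0.32) in WT and -0.30 (SE 0.34) in *Cacnb3-/-*, with adjusted p of 0.701 and 0.653.

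*Itgal*, the LFA-1 α chain, stood at 39.1 ± 15.2, 37.8 ± 11.7 and 28.2 ± 8.1 CPM in the WT ctrl, 0p5h and 24h libraries and at 35.4 ± 26.9, 32.3 ± 28.5 and 26.95 ± 11.2 CPM in the *Cacnb3-/-* libraries (SD, n = 5 each). It was lower at 24h than at ctrl in 5 of 5 WT cultures, at a log2 fold change of -0.46 (SE 0.29, edgeR adjusted p = 0.683). With the block, WT 24h against 0p5h was -0.41 (adjusted p = 0.0458), a call that was lost without p974s846, p974s850, p974s855 or p974s864 (adjusted p between 0.0964 and 0.131). In *Cacnb3-/-* cultures *Itgal* did not move one way. It was 1.58 times its ctrl level at 24h in the highest culture and 0.561 times in the lowest, and the log2 fold change from 0p5h to 24h was -0.23 without the block and 0.08 with it, with adjusted p of 0.816 and 0.815.

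Beside the lower 24h levels of these CD18 genes, the summed macrophage markers were lower at 24h than at ctrl in 5 of 5 cultures of each genotype, at 0.554 to 0.838 times in WT and 0.599 to 0.845 times in *Cacnb3-/-*. Against 0p5h they were at 0.485 to 0.567 times in WT and 0.422 to 0.829 times in *Cacnb3-/-*. The markers did not move as one. From ctrl to 24h the group mean was lower for 6 of 9 and higher for 3 of 9 in each genotype. From 0p5h to 24h it was lower for 7 of 9 in WT and 5 of 9 in *Cacnb3-/-* cultures. At ctrl the sum was led by *Csf1r* and *Cd14*, at 615 and 475 CPM in WT and 585 and 372 CPM in *Cacnb3-/-* libraries. *Csf1r* averaged 427 CPM at 24h in WT and 331 CPM in *Cacnb3-/-* libraries. *Cd14* averaged 190 CPM at 24h against 1070 at 0p5h for WT, and 164 against 987 CPM for *Cacnb3-/-* cultures. *Mrc1* averaged 29.4 against 26.8 CPM and 81.4 against 54.3 CPM. None of the 9 macrophage markers was at 0 in a group. The summed dendritic cell markers were at 0.675 to 0.954 times their 0p5h level in WT and at 0.599 to 0.73 times in *Cacnb3-/-* cultures, and those of mature migratory dendritic cells at 0.983 to 1.29 and 0.741 to 1.41 times. The dendritic cell sum is mostly *Cd74*, *H2-Aa* and *H2-Ab1*, and the group mean was lower at 24h than at 0p5h for 5 of 8 markers in WT and 6 of 8 in *Cacnb3-/-* cultures. *Flt3* was higher at 24h, at 112 against 66.2 CPM in WT and 99.9 against 67.8 CPM in *Cacnb3-/-* cultures, as was *Zbtb46*, at 133 against 125 and 162 against 134 CPM. The part of such shifts in the levels of *Itgax* and *Itgb2* was not tested.

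Of the chains outside the CD18 group, *Itgb1* and *Itga4* had no call between sets with or without the block. *Itgb1*, the β1 chain, was at 828 ± 108, 893 ± 92.0 and 859 ± 114 CPM in the WT sets and at 694 ± 97.7, 796 ± 124 and 825 ± 101 CPM in the *Cacnb3-/-* sets, in the order ctrl, 0p5h and 24h. Its largest log2 fold change between sets was 0.27 (SE 0.14, edgeR adjusted p = 0.448), from ctrl to 24h in *Cacnb3-/-* cultures, where it was higher in 5 of 5 cultures. *Itga4*, the α4 chain, was at 479 ± 105, 485 ± 90.4 and 401 ± 55.5 CPM in WT and at 438 ± 99.6, 459 ± 110.2 and 463 ± 89.0 CPM in *Cacnb3-/-* libraries. Its changes between sets lay within the spread of the cultures, with edgeR adjusted p of 0.558 or more.

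*Itgb7*, the β7 chain, was low and varied between cultures. It was at 17.4 ± 8.17, 16.8 ± 7.15 and 18.7 ± 12.9 CPM in the WT sets. In the *Cacnb3-/-* cultures it was at 25.8, 18.6, 9.53, 11.5 and 41.2 CPM at ctrl, at 24.5, 26.4, 9.36, 16.7 and 44.0 CPM at 0p5h and at 18.3, 18.4, 7.37, 8.98 and 31.9 CPM at 24h. Each *Cacnb3-/-* culture was lowest at 24h. The log2 fold change from 0p5h to 24h there was -0.48 (SE 0.42, edgeR adjusted p = 0.539), and -0.50 with the block (adjusted p = 0.00724), but -0.18 with the block and the GC trend removed (adjusted p = 0.221). The *Itgb7* transcript has a GC content of 57.5%, against a median of 49.3% over the genes tested at 24h.

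*Itgae*, the CD103 gene, was near the floor of detection, with 4 to 96 reads in a library. In WT cultures it was at 2.66, 0.827, 3.29, 2.18 and 0.755 CPM at ctrl, at 1.28, 1.22, 3.02, 1.78 and 0.703 CPM at 0p5h and at 2.75, 1.79, 3.97, 3.09 and 1.33 CPM at 24h. Each WT culture was highest at 24h, and the sets overlapped. For WT 24h against 0p5h, the log2 fold change was 0.68 (SE 0.40, edgeR adjusted p = 0.58) and with the block 0.72 (adjusted p = 0.0246), a call lost without p974s846 (0.104) or p974s864 (0.0733). In *Cacnb3-/-* libraries *Itgae* averaged 0.861 ± 0.425, 1.02 ± 0.304 and 1.38 ± 0.644 CPM at ctrl, 0p5h and 24h, and its log2 fold change from 0p5h to 24h was 0.45 (SE 0.39, adjusted p = 0.528).

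Between ctrl and 0p5h, the 10 genes stayed close to level in both genotypes. Their log2 fold changes spanned -0.26 to 0.13 for WT and -0.13 to 0.21 for *Cacnb3-/-* cultures, with medians of 0.0 and 0.07 beside medians of 0.01 and -0.01 over all genes tested. In WT, edgeR called 0 of 10 at an adjusted p under 0.05 and at least 2-fold, beside 0.176% of 13085 genes, and in *Cacnb3-/-* cultures 0 of 10 beside 0.29% of 12750 genes. At an unadjusted p under 0.05 there were 0 of 10 in each genotype, and DESeq2 also called 0. With the block and no fold minimum, 0 of 10 passed in WT, where 5.96% of genes did, and 0 of 10 in *Cacnb3-/-* cultures, where 2.35% did. At an unadjusted p under 0.05 the block gave 2 of 10 in each genotype, beside 21.6% of genes in WT and 15.4% in *Cacnb3-/-* cultures. *Cd44* was higher at 0p5h than at ctrl in 5 of 5 WT cultures, at 1.03 to 1.20 times (log2 0.13, SE 0.23, edgeR adjusted p = 1.0), and *Itgb1* in 5 of 5 *Cacnb3-/-* cultures, at 1.06 to 1.18 times (log2 0.19, SE 0.16, adjusted p = 1.0).

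The comparisons with 24h gave the larger shifts, with no member past 2-fold. For 24h against ctrl, edgeR called 0 of 10 in WT (0.0152% of 13176 genes called) and 0 of 10 in *Cacnb3-/-* cultures (0.0% of 12452). For 24h against 0p5h it called 0 of 10 in WT (0.639% of 12830) and 0 of 10 in *Cacnb3-/-* cultures (0.66% of 12730). At an unadjusted p under 0.05 there were 1, 0, 2 and 0 of the 10, in that order, beside 8.39%, 10.8%, 11.2% and 17.5% of genes. DESeq2 called 0 in each at 2-fold (0.204%, 0.378%, 1.14% and 1.49% of genes), with 1, 0, 1 and 0 at an adjusted p under 0.05 (0.715%, 0.525%, 3.11% and 3.41% of genes). Median log2 fold changes of the 10 genes were -0.11, -0.30, -0.18 and -0.26, where those over all genes tested were within 0.01 of 0. With the block and no fold minimum, 1 of 10 passed in WT for 24h against ctrl beside 6.05% of genes, 5 of 10 in WT for 24h against 0p5h beside 11.3%, and 3 of 10 in *Cacnb3-/-* cultures for 24h against 0p5h beside 28.6%. The comparisons of 24h with ctrl and with 0p5h share their 24h libraries.

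**Figure D3:**
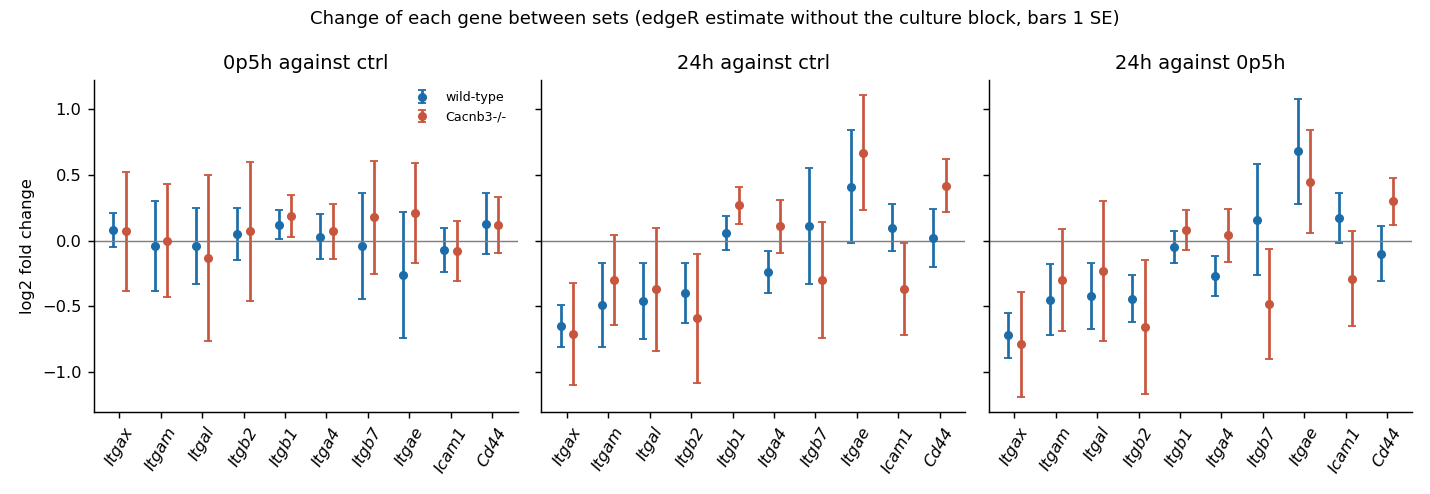
Log2 fold change of each gene between sets, from edgeR without the culture block, for WT (blue) and Cacnb3-/- (red), with bars of 1 SE. The changes from ctrl to 0p5h lie near 0, and the CD18 genes Itgax, Itgam, Itgal and Itgb2 lie below 0 in each comparison with 24h.

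*Icam1* was the member that differed most between the genotypes at 24h. In the WT cultures, in the order given, *Icam1* was at 487, 433, 541, 529 and 341 CPM at ctrl, at 429.7, 449, 556, 482 and 297 CPM at 0p5h and at 439, 450.1, 604, 628 and 363 CPM at 24h. In the *Cacnb3-/-* cultures it was at 382, 327, 218, 197 and 330.3 CPM at ctrl, at 158, 345, 255, 306 and 311 CPM at 0p5h and at 74.9, 331, 175, 158 and 379 CPM at 24h. At 24h, 4 of 5 *Cacnb3-/-* cultures lay below every WT library of that set, and p974s865 lay above the lowest WT culture, so the groups overlapped. Culture p974s843 fell from set to set, and its 24h library, at 0.196 times its ctrl level, was the lowest of all 30.

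For *Cacnb3-/-* against WT, the log2 fold change of *Icam1* was -0.65 at ctrl (SE 0.19, edgeR adjusted p = 0.245), -0.66 at 0p5h (SE 0.21, adjusted p = 0.251) and -1.12 at 24h (SE 0.35, adjusted p = 0.0538). The 24h value was called by DESeq2 (-1.13, adjusted p = 0.0152), by edgeR with all 30 libraries in one fit (-1.13, adjusted p = 0.0073) and with no filter on low counts (-1.13, adjusted p = 0.0404), and by edgeR without WT culture p974s864 (-1.21, adjusted p = 0.0421) or without *Cacnb3-/-* culture p974s865 (-1.37, adjusted p = 0.0131). With each library's GC trend removed it was -0.76 (adjusted p = 0.139), and with sequencing lane in the model -1.03 (adjusted p = 0.0972). Over all 16 alternatives its adjusted p lay between 0.0073 and 0.139. Within lanes, named in the headers of the count table, the *Cacnb3-/-* 24h libraries were at 331 CPM in lane 1, 379 CPM in lane 2 and 74.9 to 175 CPM in lane 3, and the WT 24h libraries at 363 to 450.1, 439 to 628 and 604 CPM. At 24h the *Cacnb3-/-* libraries lay below the WT libraries of their lane, but every lane held only 1 library of one of the genotypes. The part of lane was not tested beyond the fit with lane in the model.

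*Cd44*, the hyaluronan receptor gene, went the other way. In WT cultures *Cd44* was at 269, 381, 234, 349 and 476 CPM at ctrl, at 301, 459, 249, 359.9 and 488 CPM at 0p5h and at 358, 393, 272, 255 and 449 CPM at 24h. In *Cacnb3-/-* cultures it was at 243, 475, 463, 360.1 and 438 CPM at ctrl, at 357, 488, 528, 303 and 481 CPM at 0p5h and at 501, 516, 610.5, 556 and 418 CPM at 24h. At 24h, 4 of 5 *Cacnb3-/-* cultures lay above every WT library of that set. The log2 fold change of *Cacnb3-/-* against WT was 0.24 at ctrl (SE 0.23, edgeR adjusted p = 0.588), 0.25 at 0p5h (SE 0.21, adjusted p = 0.562) and 0.65 at 24h (SE 0.18, adjusted p = 0.0515). That edgeR value was also the lowest adjusted p over all genes tested at 24h. DESeq2 put the 24h change at 0.64 (adjusted p = 0.0136), and removal of the GC trend at 0.44 (edgeR adjusted p = 0.125). By DESeq2, 2 of the 10 members had an adjusted p under 0.05 at 24h, beside 22.5% of all genes. Without WT culture p974s864 the edgeR adjusted p of *Cd44* was 0.0377 and without *Cacnb3-/-* culture p974s865 it was 0.0118. Over all 16 alternatives it lay between 0.0118 and 0.125.

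**Figure D4:**
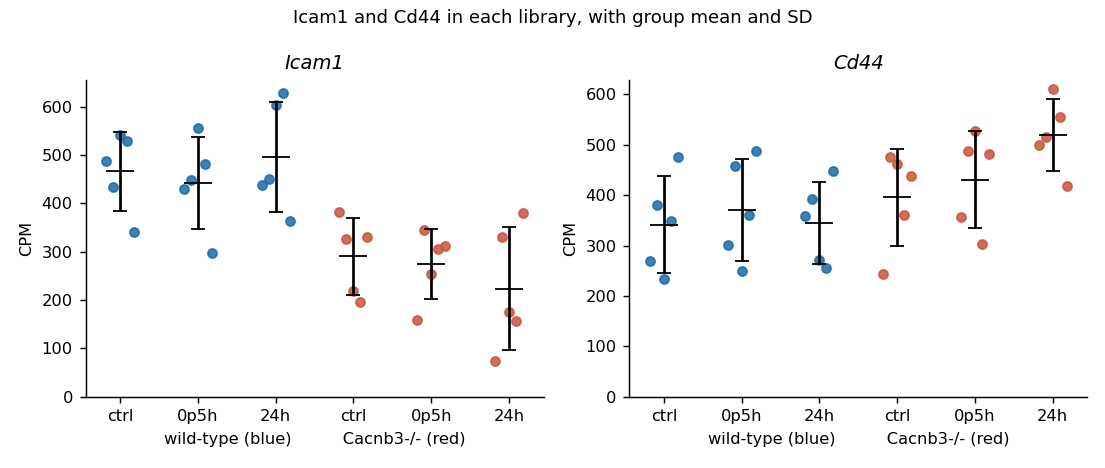
Icam1 and Cd44 (CPM, linear axis) in each library, by set, for WT (blue) and Cacnb3-/- (red). Black bars are the mean and SD of 5 libraries. At 24h, Icam1 averages 497 CPM in WT and 224 CPM in Cacnb3-/- libraries, and Cd44 345 CPM and 520.2 CPM.

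The transcripts of this pair differ in GC content. It is 56.4% for *Icam1* and 44.7% for *Cd44*. For each library, the median log2 deviation of the tenth of expressed genes richest in GC was set against that of the tenth poorest in GC. This gap was between 0.05 and 1.03 in WT 24h libraries and between -0.99 and 0.13 in *Cacnb3-/-* 24h libraries, where 4 of 5 were at -0.69 or lower, while the WT ctrl and 0p5h libraries lay between 0.05 and 0.37 and the *Cacnb3-/-* ones between -0.8 and 0.35, with p974s852 lowest in both sets. Over 30 libraries, with each culture's mean subtracted, the gap correlated with log2 CPM at r = 0.76 for *Icam1* and r = -0.798 for *Cd44*, a description over libraries that share cultures. This was not particular to the pair, with r = 0.75 for *Itgb7*, -0.67 for *Itgb1*, 0.586 for *Itgb2*, -0.467 for *Itga4* and 0.375 for *Itgax*. For *Itgam*, *Itgal* and *Itgae* it was between -0.0478 and -0.0389. In the same way, *Icam1* and *Cd44* correlated with each other at r = -0.831, and at -0.751 with the GC trend removed. The part of GC content in the differences of *Icam1* and *Cd44* was not tested beyond the values with the trend removed.

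**Figure D5:**
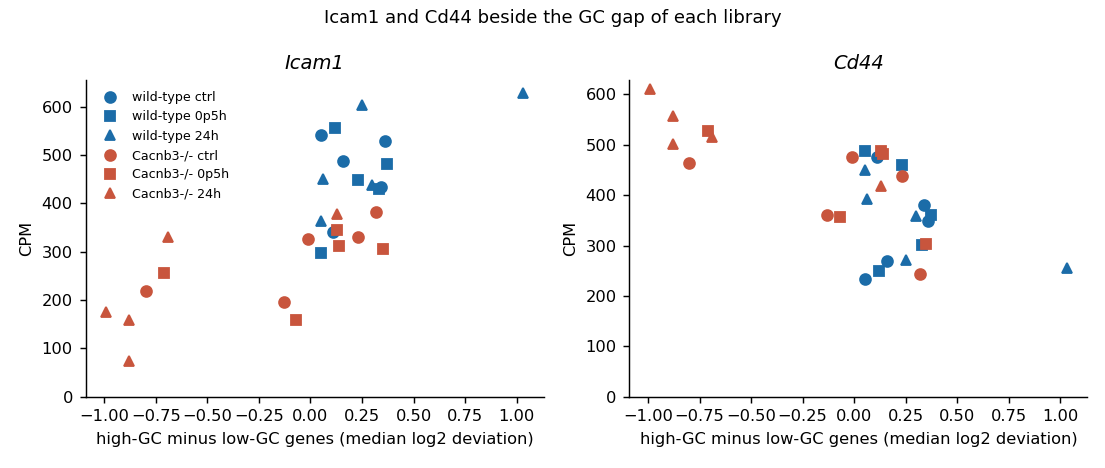
Icam1 (left) and Cd44 (right) in CPM against the GC gap of each library, which is the median log2 deviation of GC-rich genes minus that of GC-poor genes. Marker shapes are sets and colours genotypes. Gaps at or below -0.69 are found in 4 Cacnb3-/- 24h libraries and in the ctrl and 0p5h libraries of Cacnb3-/- culture p974s852.

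Across the 10 genes, edgeR called 0 of 10 between genotypes at ctrl (0.0% of 13022 genes), 0 of 10 at 0p5h (0.0% of 12806) and 0 of 10 at 24h (0.0% of 12706). At an unadjusted p under 0.05 there were 2, 1 and 4 of the 10, beside 16.6%, 16.4% and 38.4% of genes, and DESeq2 called 0, 0 and 1, beside 1.02%, 0.625% and 4.46%. After *Icam1* and *Cd44*, the smallest p at 24h were those of *Itgam*, higher in *Cacnb3-/-* (log2 0.69, SE 0.28, edgeR adjusted p = 0.0931), and *Itgae*, lower (log2 -0.87, SE 0.40, adjusted p = 0.129). *Itgax*, *Itgal*, *Itgb2*, *Itgb1* and *Itgb7* had 24h log2 fold changes between -0.25 and -0.01, and *Itga4* of 0.26 (SE 0.16, adjusted p = 0.252). The interactions of genotype with 0p5h against ctrl, with 24h against ctrl and with 24h against 0p5h gave 0 of 10 each (0.0% of 13465, 0.0% of 13536 and 0.0% of 13424 genes). DESeq2 also called 0 of 10 in each, as did edgeR with the block, which called 0, 16 and 1 of all genes. At an unadjusted p under 0.05 these gave 0 of 10 in each without the block, and with it 0, 0 and 2 of 10 beside 2.32%, 19.5% and 28.4% of genes. For 24h against ctrl, the interaction was -0.46 for *Icam1* (SE 0.42, adjusted p = 0.776) and 0.41 for *Cd44* (SE 0.30, adjusted p = 0.753).

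Ratios between members within a library were compared to describe composition apart from library size. Such a ratio keeps the GC trend of its library, and the transcripts of *Itgax* and *Itgam* have GC contents of 51.7% and 48.6%. The log2 ratio of *Itgax* to *Itgam* counts was 0.15 ± 0.72, 0.19 ± 0.63 and -0.11 ± 0.64 in the WT ctrl, 0p5h and 24h libraries and -0.58 ± 0.28, -0.46 ± 0.22 and -0.96 ± 0.19 in the *Cacnb3-/-* libraries (SD, n = 5). The ratio was lower at 24h than at 0p5h in 5 of 5 cultures of each genotype, with mean differences of -0.30 in WT (exact permutation test, two-sided, p = 0.468) and -0.50 in *Cacnb3-/-* cultures (exact p = 0.0159). This test takes the libraries as unpaired although they share cultures, and an exact sign-flip test on 5 pairs cannot go below p = 0.0625. It was lower in *Cacnb3-/-* than in WT libraries by a mean difference of -0.74 at ctrl (exact p = 0.0397), -0.65 at 0p5h (exact p = 0.0238) and -0.85 at 24h (exact p = 0.00794, the smallest that 5 against 5 allow). None of these passed adjustment over the 27 ratio tests, where each of them had an adjusted p of 0.214 or more. Even the smallest possible exact p had an adjusted p of 0.214. The adjustment could be passed only with several tests at or near that floor, so it decides little here. At 24h in *Cacnb3-/-* libraries, *Itgam* made up 52.2 ± 3.67% and *Itgax* 42.1 ± 2.79% of the length-scaled level of the CD11 chains, against 38.3 ± 8.94% and 55.0 ± 9.79% in WT.

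The ratio of *Itgae* to *Itga4* was 1.02 higher on the log2 scale at 24h than at 0p5h in WT (higher in 5 of 5 cultures, exact permutation test, two-sided, p = 0.0397, adjusted 0.214). That of *Itgb7* to *Itgb1* gave exact p of 0.238 or more in all 9 comparisons. In all, 5 of 27 ratio tests had an unadjusted p under 0.05 and 0 of 27 an adjusted one, within the limit of the test given above.

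To show which genes ran parallel to the members, log2 CPM was correlated over the 30 libraries after each culture's mean was subtracted, among 12229 genes tested in every pairwise comparison. Closest to *Itgax* were *Gde1* (r = 0.97), *Tmem119* (r = 0.964) and *Smpdl3b* (r = 0.962), and *Itgb2* followed it at r = 0.922 and *Itgam* at r = 0.766. Closest to *Itgam* were *Pid1* (r = 0.92), *Arg1* (r = 0.908) and *Gas7* (r = 0.905). Closest to *Icam1* were *Cog1* (r = 0.967), *Mmp25* (r = 0.962) and *Pitrm1* (r = 0.962), and to *Cd44* *Npm1*, *Eif4g2* (both r = 0.939) and *St13* (r = 0.933). The libraries share cultures, sets and base composition, so these values describe the libraries and carry no test.

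The wider adhesion system was read from 6 lists of 72 other genes, of which 51 to 53 passed the filter in a comparison. Between sets, edgeR called 1 of them in WT for 24h against 0p5h (0.639% of all genes called) and 0 in the other comparisons (at most 0.66%). DESeq2 called 1 there (1.14% of all genes) and 1 in *Cacnb3-/-* cultures for 24h against 0p5h (1.49%). The edgeR call was *Thbs1*, which encodes the matrix protein thrombospondin-1. It fell in WT from 3735 ± 861 CPM at 0p5h to 1423 ± 345 CPM at 24h (log2 -1.39, adjusted p = 0.00758), lower in 5 of 5 cultures, and was at 2247 ± 594 CPM at ctrl. In *Cacnb3-/-* cultures *Thbs1* was at 4369 ± 2078.5 and 1852 ± 328 CPM (log2 -1.20, adjusted p = 0.0861). With the block and no fold minimum, 7 of 51 genes passed in WT for 24h against 0p5h and 17 of 51 in *Cacnb3-/-* cultures, near the 11.3% and 28.6% of all genes. Among the counter-receptors, the gene of smallest p in *Cacnb3-/-* cultures was *Vcam1*, the ligand of α4β1, at 14.2 ± 5.42 CPM at 0p5h and 25.5 ± 6.78 CPM at 24h (log2 0.87, edgeR adjusted p = 0.17, with the block 0.91 and adjusted p = 0.000403), higher in 5 of 5 cultures. Among the other integrin subunits it was *Itga3* (log2 -0.93, adjusted p = 0.236) and among the activators and adaptors *Lims1* (log2 0.55, adjusted p = 0.132).

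Between genotypes, edgeR called 0 of 52 genes tested at ctrl, 0 of 51 at 0p5h and 0 of 51 at 24h, beside 0.0% of all genes in each set. At an unadjusted p under 0.05 there were 9 of 52 at ctrl, 7 of 51 at 0p5h and 23 of 51 at 24h, beside 16.6%, 16.4% and 38.4% of all genes. DESeq2 called 0, 0 and 1, beside 1.02%, 0.625% and 4.46% of all genes. The lowest edgeR adjusted p over all genes tested at 24h was 0.0515. The smallest p in each list at 24h belonged to *Spp1*, which encodes osteopontin, a ligand of integrins and CD44 (log2 1.06, 224 ± 81.0 CPM in *Cacnb3-/-* against 112 ± 15.7 CPM in WT, edgeR adjusted p = 0.0515), to *Adam10*, a sheddase of CD44 (log2 0.68, adjusted p = 0.0515), to the kinase gene *Lyn* (log2 0.52, adjusted p = 0.0515), to *Selplg*, which encodes the selectin ligand PSGL-1 (log2 -0.69, adjusted p = 0.0515), to *Itgav* (log2 0.68, adjusted p = 0.0683) and to *Icam5* (log2 -0.57, adjusted p = 0.103). None of the 3 interactions had a call among these lists, with 0 of 53, 5 of 52 and 5 of 52 genes at an unadjusted p under 0.05, beside 0.223%, 4.86% and 5.88% of all genes.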

How the data were processed

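Polyadenylated RNA of 30 libraries was sequenced. The authors deposited raw read counts per gene, with reads aligned by STAR 2.4 per the labels and counted with featureCounts 1.5.1 over the exons in Ensembl release 79 (GRCm38), per the file header, on alignments of read 1. The header sets no option for strand or overlapping genes. The methods of the study name GRCm39 and paired reads, so the header was followed. Symbols came from GENCODE M39 (89.4% of identifiers) and promoter windows from RefSeq (GRCm38.p6), which held 7 of the 10 genes. Members and lists were chosen with earlier results of these data known.

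Counts were tested with R 4.3.3 and edgeR 4.0.16 (TMM, filterByExpr, quasi-likelihood test, Benjamini-Hochberg adjustment) on the groups compared. SE was the absolute log2 fold change over the square root of F. Calls needed at least a 2-fold change besides an adjusted p under 0.05. Interactions of genotype with set, and ratios of members within a library (exact permutation), were also tested. Named genes were the 10 members, the 3 closest genes of 4 members, and of other lists the called gene and the gene of smallest p in the comparisons described, of which 1 is not reported here.

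Alternatives were DESeq2 1.42.0, its size factors, no filter, no fold minimum, one fit of all 30 libraries, the GC trend removed, the culture number as a block, and each culture left out. Lane as a covariate, and the block with no fold minimum, with the GC trend removed or with a culture left out, were chosen after seeing the data. GC content was known for 99.3% of expressed genes. Within a genotype, 2 libraries that carry one culture number were taken as a pair. In 29 of the 30 pairs the deviations from group means correlated over 0.1, with medians of 0.587 to 0.711 by comparison. Libraries with different numbers correlated at up to 0.378 to 0.466. That was above the lowest pair in *Cacnb3-/-* cultures for 0p5h against ctrl (0.321) and for 24h against ctrl (0.0745). The numbers are thus not shown to pair every library, and the block is given as an alternative beside results. For *Cacnb3-/-* 24h against ctrl it is given only for *Itgax* and in the closing section. Procedures were tested on simulated data. Nothing in the labels says that cultures came from separate animals, so p-values measure the spread between these samples.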

Additional observations from a re-analysis of the deposited data

Results flagged for a closer look

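In 3 of 60 groups of 5 libraries (10 genes in 6 groups), a library stood far from the others, with its gap to the nearest library over 0.71 of the whole range. Chance flags about 1 in 20 groups, or 3 of 60. *Itgam* in the *Cacnb3-/-* ctrl libraries was at 607 CPM in culture p974s865, and the next highest was 296 CPM. *Itgax* in the WT ctrl libraries was at 181 CPM in p974s846, and the next lowest was 233 CPM. *Itgb7* in the WT 24h libraries was at 41.4 CPM in p974s856, and the next highest was 16.3 CPM. That library also had the widest GC gap of all 30, at 1.03.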

How the results depend on the processing

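Of 243 alternative counts of called members or of ratios, 234 equalled the reported count. *Icam1* was the member in the count of 1 between genotypes at 24h, which was 0 as reported, given by DESeq2, by no filter on low counts and by all 30 libraries in one fit, and over the cultures left out the count was 0 to 1. With the replicate block and no fold minimum the counts were 1 for WT 24h against ctrl, 2 for *Cacnb3-/-* 24h against ctrl (*Itgax* -0.62, adjusted p = 0.0142, and *Itgb2* -0.53, adjusted p = 0.0173, beside 8.54% of all genes), 5 for WT 24h against 0p5h and 3 for *Cacnb3-/-* 24h against 0p5h. Both *Cacnb3-/-* 24h against ctrl calls held in 3 of 5 cases with a culture left out (highest adjusted p 0.0837 and 0.0979) and were lost with the GC trend removed (0.0504 and 0.0793). With the block and the 2-fold minimum the count was 0 in each comparison, and the numbers pair the libraries only as far as the correlations show.

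The sign of *Itgal* turned in *Cacnb3-/-* cultures. For 24h against 0p5h (-0.23), it was 0.08 with the block, 0.05 with lane, 0.25 with the block and the GC trend removed, 0.16 without p974s865 (-0.38 to 0.16 over single cultures left out), and 0.11, 0.19 and 0.34 with the block and without p974s843, p974s851 or p974s865. For 24h against ctrl (-0.37) it was 0.03 with the block and the GC trend removed and 0.05 with the block without p974s865. The interaction of *Itgax* for 24h against ctrl (-0.06) was 0.05 with the block, 0.01 with lane, 0.07 with the GC trend removed, 0.18 with both block and GC, 0.05 without p974s855 and 0.07 without p974s865 (-0.14 to 0.07 over single cultures left out). The causes were not tested. DESeq2's size factors moved the median of all genes by at most 0.01 (log2).

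With 5 cultures a group, SEs of single members between sets were between 0.11 and 0.63 without the block, which limits the changes that this fit could call. Depth limits *Itgae* most, at 4 reads in its lowest library.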
